A study of Mus musculus with 4 samples.

Results

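Transcripts of 9 genes of the T cell receptor pathway were followed in brain septal tissue of mice with and without the receptor's beta chain. They were the receptor chains Trbc2 and Trac, the signalling subunit Cd247, the coreceptor Cd4, the surface proteins Thy1 and Cd6, the kinases Lck and Zap70, and the adaptor Skap1. The genes were picked by symbol and were chosen by their levels in the same 4 libraries, so those levels are given as descriptions and no test over them is offered as support. All 9 were found among 15397 gene rows with a symbol of their own. Of these rows, 13900 reached a mean of at least 1 CPM (the reads of a gene scaled to a common library total) over the 4 libraries and entered the fits. The fits held 7 of the 9 genes, and Cd247 and Cd6 fell below that mean. The question asked of each gene was whether its levels followed genotype, as those of Trbc2 did, or followed a gene of a neighbouring brain region, the dopamine receptor Drd1.

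The 4 libraries came from TCRb-/- mice, which have the beta chain of that receptor deleted, and from wild-type (WT) mice. Each genotype had 1 library in experiment 1 (replicate 1) and 1 in experiment 2 (replicate 2), the experiments being the batches named in the labels. All mice, WT included, were restrained for 30 min on each of 3 days, and tissue was taken 1.5 h after the final restraint. Each library pooled septal tissue of 4 to 5 mice, so a replicate is a pool and a pool's spread between mice cannot be seen. The sources used here give no strain, age, sex or extent of the deleted segment. Mice without the beta chain lack alpha-beta T cells and still make gamma-delta T cells.

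The T cell receptor is a pair of alpha and beta chains that binds a peptide held by an MHC molecule, and it signals through the CD3 subunits and the zeta chain. CD4, which binds MHC class II, brings the kinase Lck to the receptor. Lck phosphorylates the zeta chain, the kinase Zap70 docks there, and adaptors carry the signal on. T cells are rare in the healthy brain, and several of these genes are not confined to T cells: Thy1 is an abundant surface protein of mouse neurons.

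The libraries held between 19988137 and 26210790 reads, so 1 read was worth 0.0382 to 0.05 CPM. A count of 0 allowed up to 3 reads, which was 0.114 to 0.150 CPM. The libraries differed in regional content. The summed level of 16 striatum genes was 5960 CPM in TCRb-/- experiment 1, 1460 in TCRb-/- experiment 2, 5310 in WT experiment 1 and 3210 in WT experiment 2. The summed level of 13 choroid plexus genes was 2160, 6930, 1320 and 4210 CPM in the same order of libraries. Thalamus genes (9) summed to 742, 1750, 726 and 1200 CPM, and cortex and hippocampus genes (10) to 335, 112, 384 and 127 CPM. For the septum itself, 10 of 11 marker genes were listed, with sums of 248, 288, 244 and 277 CPM. TCRb-/- experiment 2 thus had the lowest striatum sum and the highest choroid plexus sum, and of these 5 lists the septum sum varied least.

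Trbc2 and Trbc1 are neighbouring copies of the constant segment of the beta chain on chromosome 6, and their likeness bears on which copy a read is counted for. In GENCODE M21 on GRCm38, Trbc2 (T cell receptor constant gene, plus strand) runs from 41546730 to 41548352 and Trbc1 from 41538218 to 41539881. Their 518 coding bases differ at 23 positions and are 95.6% identical. The longest stretch without a difference is 259 bases. The coding exons hold 1, 3, 15 and 4 of the differences from the first exon to the last. Coding bases 376 to 518, from exons 2 to 4 joined across their introns, hold 22 of the 23 and are printed 5′ to 3′, with the bases that differ between the copies in capitals.
Trbc1, chr6:41539114-41539662: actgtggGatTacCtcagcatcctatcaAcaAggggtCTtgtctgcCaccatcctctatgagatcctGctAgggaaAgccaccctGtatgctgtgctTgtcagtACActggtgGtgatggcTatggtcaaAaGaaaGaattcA
Trbc2, chr6:41547610-41548178: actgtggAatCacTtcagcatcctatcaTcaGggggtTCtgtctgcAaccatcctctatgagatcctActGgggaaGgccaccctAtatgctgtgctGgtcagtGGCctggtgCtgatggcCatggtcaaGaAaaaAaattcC
A read that lies within the shared bases of the first coding exon cannot be assigned to a copy, and the sources used here do not say how such reads were counted. Trbc1 was not among the listed rows and was not analysed here.

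Trbc2 had 0 reads in TCRb-/- experiment 1 and 0 in TCRb-/- experiment 2. It had 169 reads in WT experiment 1, a level of 6.45 CPM (exact 95% counting interval 5.51 to 7.5), and 86 reads in WT experiment 2, a level of 3.85 CPM (3.08 to 4.75). The genotypes did not overlap, and the WT pools themselves differed, experiment 2 standing at 0.597 of experiment 1. Against the floor of 3 reads, the WT level was 52.8-fold higher in experiment 1 and 25.6-fold higher in experiment 2. These folds leave out the counting error of the WT reads. The 95% counting interval of the TCRb-/- to WT ratio reached up to 0.0235 in experiment 1 and 0.049 in experiment 2. The WT mean was 5.15 ± 1.84 CPM (SD, n = 2). Trbc2 belongs to the chain deleted in TCRb-/- mice, and the sources used here do not say whether the deletion covers it. Loss of the gene itself, fewer cells that carry the transcript and less transcript per cell cannot be told apart here in bulk tissue.

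The fitted difference of Trbc2, TCRb-/- minus WT, was -2.59 (SE 0.28) on the scale of log2(CPM + 1), a scale on which changes of low genes come out too small. It was -5.67 with a pseudocount of 0.1 and -1.01 with a pseudocount of 5, so its size is set by the pseudocount. In limma with genotype alone in the model, 0 of 13900 genes (0%) passed an adjusted p of 0.05 and 43 had an unadjusted p under 0.05. That model ignores the pairing of libraries by experiment, so differences between experiments counted as spread between pools. Its p-values are therefore too large for genes that differ between experiments. Limma shares variance over genes, so the p-values of other genes can be too large as well. None of the 7 fitted T cell genes passed there, and 1 of them, Trbc2, had an unadjusted limma p under 0.05. With the experiment as a block, limma called 2 genes (0.0144%), 1 of which was Trbc2 (adjusted p 0.0335, against 1.00 without the block). The other was Ttr, the choroid plexus gene for transthyretin, higher in TCRb-/- by 0.85 at the same adjusted limma p of 0.0335. With no reads in TCRb-/-, Trbc2 reached the mean needed for the fits (2.57 CPM) only through the WT pools. It was also named for this pattern when the genes were chosen. Its call therefore describes the choice and is no support for a genotype effect. Before adjustment, the limma p of 784 of 13900 genes lay under 0.05 in the blocked fit, against 43 in the unblocked one. The 784 are near the share of 0.05 that this threshold passes when no gene differs, and the 43 are far below it. Neither count is therefore a count of genotype effects. The smallest p that an exact permutation test of a single gene allows with 2 pools against 2 is 0.333.

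Trac, the constant segment of the alpha chain, was read in every library. It lies on chromosome 14 from 54220521 to 54224206 on the plus strand. Its level was 0.569 CPM (14 reads) and 1.15 CPM (23 reads) in TCRb-/- experiments 1 and 2, and 0.992 CPM (26 reads) and 1.61 CPM (36 reads) in WT experiments 1 and 2. Within each experiment the TCRb-/- pool was the lower, but the genotypes overlapped, since TCRb-/- experiment 2 lay above WT experiment 1. The TCRb-/- to WT ratio was 0.574 in experiment 1 (95% counting interval 0.277 to 1.14) and 0.715 in experiment 2 (0.404 to 1.24), and both intervals hold a ratio of 1. From experiment 1 to experiment 2, Trac was 2.02-fold higher in TCRb-/- and 1.62-fold higher in WT. Trac transcripts were therefore counted where Trbc2 was at 0.

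The receptor chains can be set against each other per base of annotated exon, 692 bases for Trbc2 and 935 for Trac. In WT experiment 1, the level of Trbc2 per exon base was 8.78 times that of Trac (exact 95% counting interval 5.79 to 13.8). In WT experiment 2, the ratio was 3.23 (2.16 to 4.90). The intervals, which cover counting error only, do not overlap: in the WT pool of experiment 2, Trbc2 was lower and Trac higher than in that of experiment 1. Trdc, the constant segment of the delta chain of gamma-delta T cells, stood between 0.305 and 0.581 CPM with overlapping genotypes, and its exons share bases with an antisense gene.

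Cd247 encodes the zeta chain, which carries the motifs that Lck phosphorylates. It lies on chromosome 1 from 165788681 to 165877277 on the plus strand. Its level was 0.407 CPM (10 reads) and 1.50 CPM (30 reads) in TCRb-/- experiments 1 and 2, and 0.191 CPM (5 reads) and 0.760 CPM (17 reads) in WT experiments 1 and 2. Both genotypes were higher in experiment 2, by 3.69-fold in TCRb-/- and 3.99-fold in WT. TCRb-/- was the higher in each experiment, with ratios of 2.13 (95% counting interval 0.664 to 7.95) and 1.97 (1.05 to 3.82), opposite in direction to Trbc2 and Trac. Over all 15397 genes without the filter, limma gave Cd247 a difference between experiments of 0.70 (SE 0.22, adjusted p 0.0542), and an adjusted p of 0.0336 with genotype kept in the model.

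Values of 2 other kinds stood beside Cd247. Its exons share 3007 of 5329 bases with Pou2f1 on the opposite strand. Pou2f1 had 307 and 211 reads in TCRb-/- experiments 1 and 2, and 332 and 229 reads in WT experiments 1 and 2. The library kit is not stated to keep strand, so reads of the pair cannot be told apart in those bases. The order of the libraries for Cd247, from TCRb-/- experiment 2 through WT experiment 2 and TCRb-/- experiment 1 down to WT experiment 1, was also that of all 13 choroid plexus genes. Ttr, the most abundant of them per exon length, had 4480, 2590, 1200 and 638 CPM in that order. The same order held for 2 of 9 thalamus, 2 of 10 septum and 1 of 10 microglia genes, and for 10.2% of all fitted genes. The summed levels of thalamus genes and of septum genes ran in it too. Cd6 had this order from 7 to 12 reads per library, and lost it under quantile normalization. The part of choroid plexus content in the level of Cd247 was not tested.

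**Figure D1:**
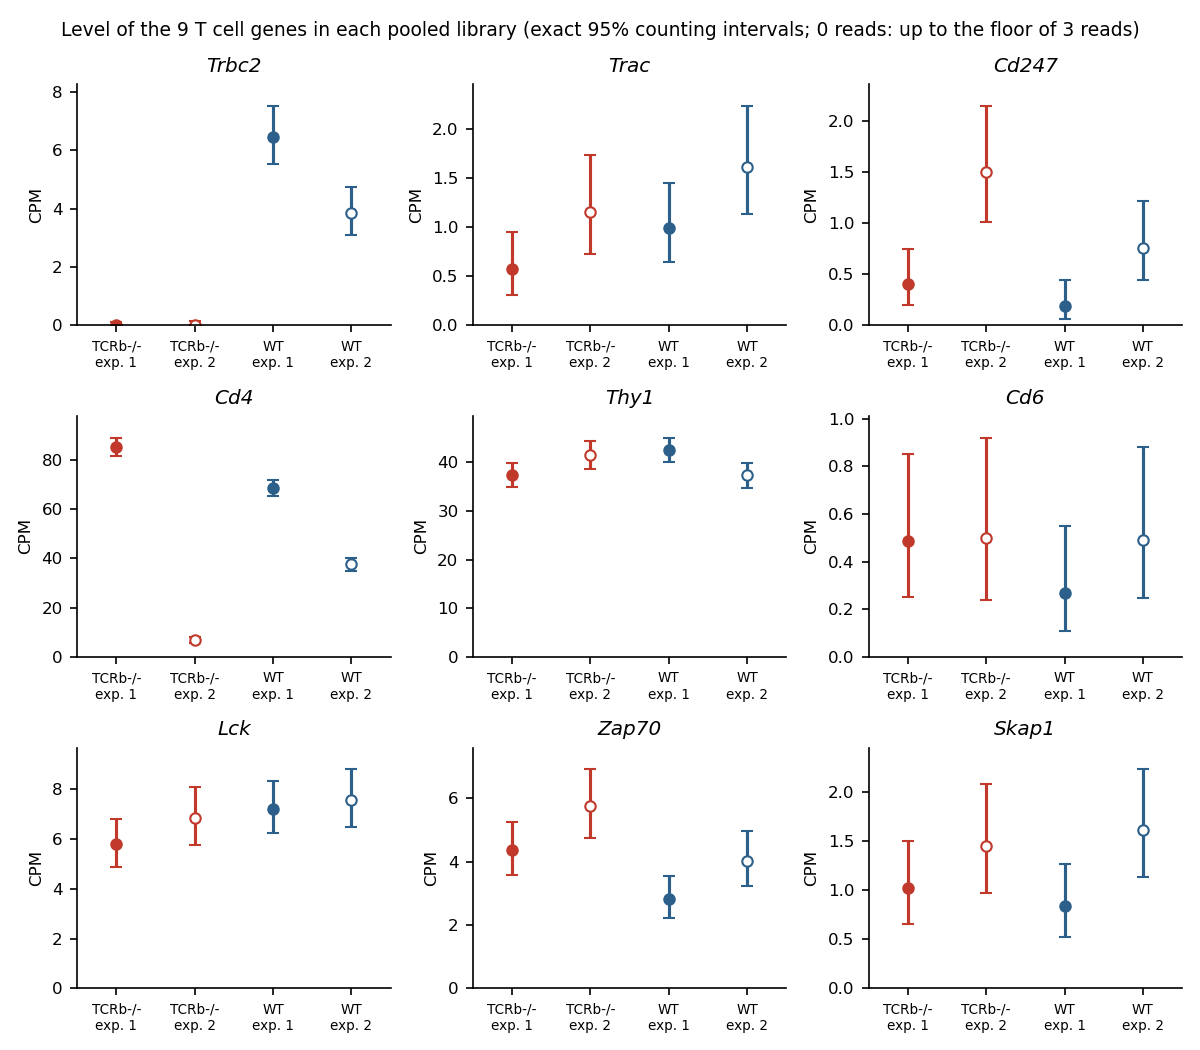
Level of each gene in CPM (vertical axis, from 0) in the 4 pooled libraries, with TCRb-/- in red, WT in blue, filled points for experiment 1 and open points for experiment 2; bars are exact 95% counting intervals, or the floor of 3 reads where no read was counted. Trbc2 is at 0 in both TCRb-/- pools and at 6.45 and 3.85 CPM in WT, whereas Cd4 spans 6.70 to 85.0 CPM within TCRb-/- alone.

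Cd4 ranged widely over the libraries, and its genotypes overlapped. Cd4 lies on chromosome 6 from 124864692 to 124888221 on the minus strand. Its level was 85.0 CPM (2091 reads) in TCRb-/- experiment 1, 6.70 CPM (134 reads) in TCRb-/- experiment 2, 68.5 CPM (1795 reads) in WT experiment 1 and 37.5 CPM (838 reads) in WT experiment 2. The TCRb-/- pools held both the highest and the lowest value, and the WT pools lay between them. The mean was 45.9 ± 55.4 CPM in TCRb-/- and 53.0 ± 21.9 CPM in WT (SD, n = 2 each). The TCRb-/- to WT ratio was 1.24 in experiment 1 (95% counting interval 1.17 to 1.32) and 0.179 in experiment 2 (0.148 to 0.215). The genotype difference was thus of opposite sign in the 2 experiments, as it was for 48.5% of all fitted genes.

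Drd1, the dopamine receptor of striatal neurons of the direct pathway, had 167, 25.7, 146 and 81.3 CPM in TCRb-/- experiments 1 and 2 and WT experiments 1 and 2. Ranked from high to low, both genes ran TCRb-/- experiment 1, WT experiment 1, WT experiment 2, TCRb-/- experiment 2. Of the 9 T cell genes, Cd4 was the 1 with this order, which 12.9% of all fitted genes and 15 of 16 striatum genes shared. Likeness of profiles was measured as the root mean square distance between log2(CPM + 1) values, each gene centred on its mean over the 4 libraries. That distance was 0.33 between Cd4 and Drd1 and 1.47 between Cd4 and Trbc2. Of all fitted genes, 0.223% lay nearer to Drd1 than Cd4 did, and the median distance of a gene from Drd1 was 1.04. Distances are over 4 libraries, and Cd4 was picked for this likeness.

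The 5 genes nearest to Cd4 among all fitted genes were Scn4b (distance 0.18), Sh3rf2 (0.26), Adora2a (0.29), Pde10a (0.31) and Drd1 (0.33). Scn4b, a sodium channel subunit, had 259, 22.0, 242 and 94.4 CPM in TCRb-/- experiments 1 and 2 and WT experiments 1 and 2. Adora2a, the adenosine receptor of striatal neurons of the indirect pathway, had 107, 13.7, 81.4 and 44.4 CPM. Pde10a, a phosphodiesterase abundant in striatum, had 307, 37.0, 256 and 102 CPM. Each of them had its lowest level in TCRb-/- experiment 2, as did 16 of 16 striatum genes.

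Within a library, the reads of Cd4 could be set against those of Drd1, a ratio that is comparable between libraries and not between genes. There were 0.509 Cd4 reads per Drd1 read in TCRb-/- experiment 1 (exact 95% counting interval 0.483 to 0.537), 0.470 in WT experiment 1 (0.444 to 0.497) and 0.461 in WT experiment 2 (0.424 to 0.501). In TCRb-/- experiment 2 the ratio was 0.261 (0.214 to 0.316), below the other 3 intervals. Cd4 was thus low in that pool even relative to Drd1. Scn4b per Drd1 read was also lowest there, at 0.854 against 1.16 to 1.66 in the other pools, while Adora2a per Drd1 read was 0.531 there against 0.547 to 0.641. For 2 pathway genes with the order of Drd1 the ratio was instead highest there. Bcl11b had 1.87 reads per Drd1 read (1.68 to 2.09) against 1.11 to 1.21, and Tcf7 had 0.113 (0.0845 to 0.148) against 0.075 to 0.0886. The interval of Tcf7 there overlapped those of WT experiment 1 (0.0686 to 0.0872) and WT experiment 2 (0.0749 to 0.104).

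The experiments differed in 3293 of 13900 genes by limma (23.7%), of which 1245 were called higher and 2048 lower in the second. Of the 7 fitted T cell genes it called 1, Cd4, with a difference of -2.17 (SE 0.60) against -1.74 (SE 0.42) for Drd1, and 15 of 16 striatum genes were called lower. The genotype difference of Cd4 was -1.01 (SE 1.1). Without TCRb-/- experiment 1 the genotype difference of Cd4 was -2.75, and without TCRb-/- experiment 2 it was 0.73. Each of these fits had a single TCRb-/- pool. The call of Cd4 between experiments was lost without TCRb-/- experiment 1 (adjusted limma p 0.136) or without WT experiment 1 (0.0985). The part of striatal content in the level of Cd4 was not tested.

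**Figure D2:**
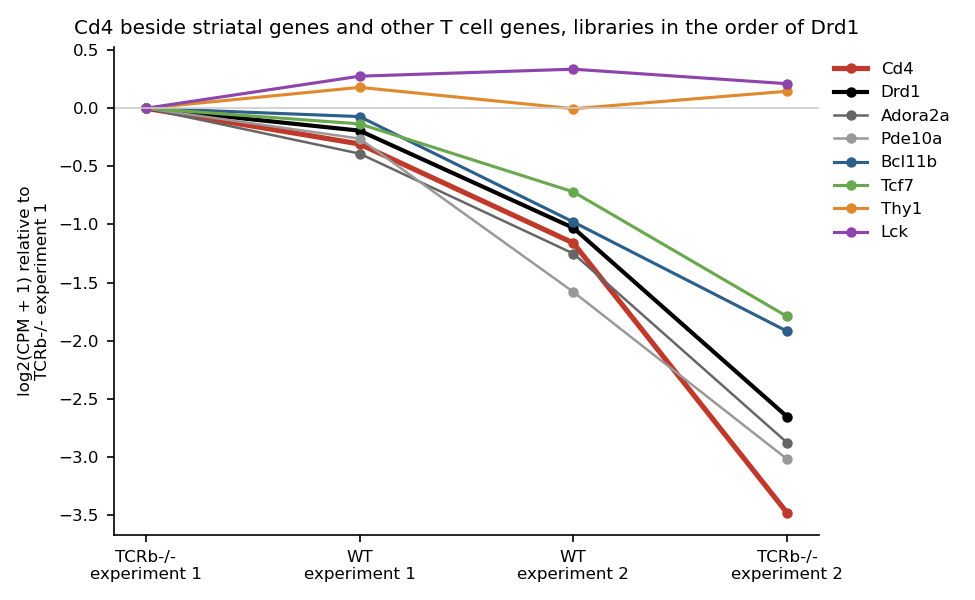
Log2(CPM + 1) of each gene relative to its value in TCRb-/- experiment 1 (vertical axis), with the 4 libraries on the horizontal axis in the order of Drd1 from high to low; each line is 1 gene. Cd4, Drd1, Adora2a, Pde10a, Bcl11b and Tcf7 descend to TCRb-/- experiment 2, where Cd4 had 6.70 CPM and Drd1 25.7 CPM, while Thy1 and Lck stay near the level of TCRb-/- experiment 1.

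Thy1, a lipid-anchored surface protein of mouse T cells and neurons, was the steadiest of the 9 genes. It lies on chromosome 9 from 44043384 to 44048579 on the plus strand. Its level was 37.4 and 41.5 CPM in TCRb-/- experiments 1 and 2, and 42.5 and 37.3 CPM in WT experiments 1 and 2, from 829 to 1113 reads. The genotypes overlapped, and the means were 39.4 ± 2.90 CPM in TCRb-/- and 39.9 ± 3.65 CPM in WT (SD, n = 2 each). The TCRb-/- to WT ratio was 0.880 in experiment 1 (95% counting interval 0.806 to 0.961) and 1.11 in experiment 2 (1.01 to 1.23). These opposite differences lie outside counting error in each experiment and are small beside those of Cd4. Averaged over the 4 libraries, the level per kilobase of exon was 13.2 for Thy1, close to 12.3 for Cd4, against 28.9 for Drd1 and 3.72 for Trbc2 (in CPM per kilobase).

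Cd6, a scavenger-receptor protein of T cells that binds the adhesion molecule ALCAM, was near the detection limit. It lies on chromosome 19 from 10789341 to 10830058 on the minus strand. Its level was 0.488 and 0.500 CPM in TCRb-/- experiments 1 and 2, and 0.267 and 0.492 CPM in WT experiments 1 and 2, from 7 to 12 reads. As a ratio of TCRb-/- to WT, Cd6 stood at 1.83 in experiment 1 (95% counting interval 0.663 to 5.48) and 1.02 in experiment 2 (0.387 to 2.64). At this depth a difference of genotype was not detectable for Cd6. Per kilobase of exon it was the lowest of the 9 genes, at 0.0548 CPM per kilobase.

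Of the kinases, Lck was lower in both TCRb-/- pools than in both WT pools. Lck, the kinase bound to the tail of CD4, lies on chromosome 4 from 129548344 to 129573641 on the minus strand. Its level was 5.78 CPM (142 reads) and 6.85 CPM (137 reads) in TCRb-/- experiments 1 and 2, and 7.21 CPM (189 reads) and 7.56 CPM (169 reads) in WT experiments 1 and 2. The gap between the nearest pools of the genotypes was smaller than that between the TCRb-/- pools, and the counting intervals of the nearest pools overlap (5.75 to 8.10 and 6.22 to 8.32 CPM). The TCRb-/- to WT ratio was 0.801 in experiment 1 (95% counting interval 0.640 to 1.00) and 0.907 in experiment 2 (0.719 to 1.14). The genotype difference was -0.20 (SE 0.19) and did not pass the threshold with or without the block (adjusted limma p 0.904 and 1.00).

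Zap70, the kinase that docks on the phosphorylated zeta chain, went the other way. It lies on chromosome 1 from 36761798 to 36782818 on the plus strand. Its level was 4.35 CPM (107 reads) and 5.75 CPM (115 reads) in TCRb-/- experiments 1 and 2, and 2.82 CPM (74 reads) and 4.03 CPM (90 reads) in WT experiments 1 and 2. Both TCRb-/- pools lay above both WT pools, and both genotypes were higher in experiment 2. Zap70 in TCRb-/- was 1.54 times the WT level in experiment 1 (95% counting interval 1.14 to 2.1) and 1.43 in experiment 2 (1.08 to 1.90). The genotype difference was 0.46 (SE 0.24), with an adjusted limma p of 1.00 without the block and 0.849 with it. After quantile normalization, TCRb-/- experiment 1 and WT experiment 2 had the same level of 2.37 on the log2 scale, so the separation of the genotypes depends on the scaling.

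Pools of 1 genotype lying wholly to 1 side were common among all fitted genes. Both TCRb-/- pools were the lower for 8.04% of genes and the higher for 9.77%. Among the 7 fitted T cell genes, 2 had both TCRb-/- pools lower (Trbc2 and Lck) and 1 had both higher (Zap70).

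Skap1, an adaptor that couples the receptor to integrin adhesion, differed little by genotype. It lies on chromosome 11 from 96464593 to 96759130 on the plus strand. Its level was 1.02 CPM (25 reads) and 1.45 CPM (29 reads) in TCRb-/- experiments 1 and 2, and 0.839 CPM (22 reads) and 1.61 CPM (36 reads) in WT experiments 1 and 2. In both genotypes the pool of experiment 2 was the higher, by 1.43-fold in TCRb-/- and 1.92-fold in WT. Relative to WT, Skap1 in TCRb-/- stood at 1.21 in experiment 1 (95% counting interval 0.656 to 2.25) and 0.901 in experiment 2 (0.533 to 1.51). A genotype difference was not detectable at this depth, and the difference between experiments of 0.39 (SE 0.19) did not pass the threshold (adjusted limma p 0.165).

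**Figure D3:**
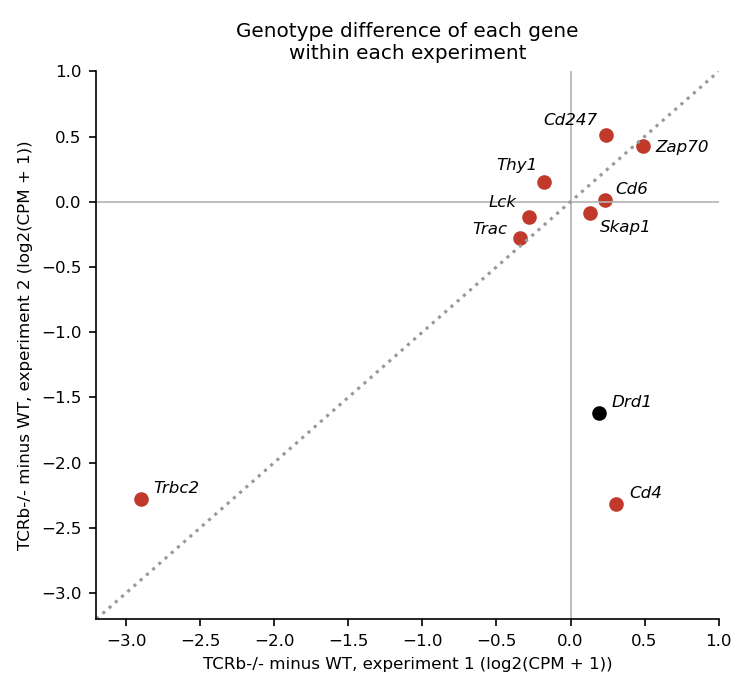
Difference in log2(CPM + 1), TCRb-/- minus WT, in experiment 1 (horizontal axis) and in experiment 2 (vertical axis) for the 9 T cell genes (red) and Drd1 (black); the dotted line marks equal differences. Trbc2 lies near the line at -2.90 and -2.28, Cd4 lies off it at 0.31 and -2.32 beside Drd1 at 0.19 and -1.62, and the other 7 genes lie between -0.34 and 0.51 on both axes.

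To set the 9 patterns side by side, the sum of squares of log2(CPM + 1) over the 4 libraries was divided into shares for genotype, experiment and their interaction. For Trbc2 the genotype share was 97.2%. It was 62.2% for Lck and 60.8% for Zap70, whose spreads over the libraries were far smaller. The spread, the root mean square deviation of log2(CPM + 1) from the gene's mean, was 1.31 for Trbc2, 0.29 for Zap70 and 0.13 for Lck, and the median over genes was 0.139. These 3 genes had genotype as their largest share with no overlap of genotypes, as did 17.8% of all fitted genes. Zap70 lost that place under quantile normalization, where its genotype and experiment shares were equal, while Trbc2 and Lck kept theirs.

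The experiment share was the largest for Cd4 (63.2%, with 23.2% for the interaction), Trac (64.5%), Skap1 (92.3%), Cd247 (75.6%) and Cd6 (36.3%). This held for 3 of the 7 fitted T cell genes and for 67.3% of all fitted genes. Drd1 was divided like Cd4, with 69.5% for the experiment, 18.9% for the interaction and 11.6% for genotype. The spreads of Cd4 and Drd1 were 1.36 and 1.05. Thy1 was divided unlike the others, with 98.0% for the interaction, but its spread was 0.08, so this share is of a small variation. Trbc2 and Cd4 were named for these patterns when the genes were chosen, so their division restates that choice. The other 7 genes had spreads of 0.08 to 0.40.

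**Figure D4:**
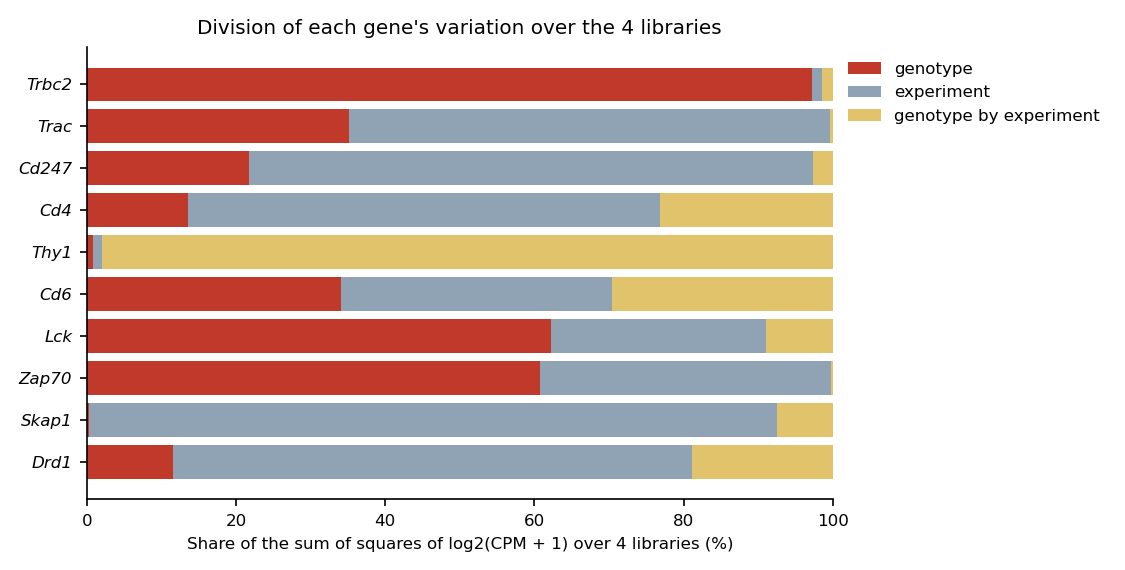
Share of the sum of squares of log2(CPM + 1) over the 4 libraries (horizontal axis, percent) that goes to genotype (red), experiment (grey) and their interaction (yellow), for the 9 T cell genes and Drd1. Genotype takes 97.2% for Trbc2, 62.2% for Lck and 60.8% for Zap70; experiment takes most for Cd4 (63.2%) and Drd1 (69.5%).

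No gene had a profile close to that of Trbc2. The 5 nearest were Coro2b (distance 0.89), Gm13016 (0.94), Bves (0.96), AA414768 (0.96) and Gm16638 (0.97), against a spread of 1.31 for Trbc2 itself. Coro2b had 32.3, 23.0, 70.1 and 36 CPM in TCRb-/- experiments 1 and 2 and WT experiments 1 and 2. None of the other 8 T cell genes was among the 5. The nearest of the 8 were Trac at 1.2 and Lck at 1.22, against a median over all genes of 1.32.

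The wider pathway was read from a list of 63 genes, of which 27 were listed, 22 reached a mean of 1 CPM and 36 were not analysed here. Those not analysed included Cd3d, Cd3e, Cd3g, Cd8a, Cd2, Cd5, Cd28 and Lat, so the defining CD3 subunits give no check of the T cell label. Among the 22 fitted genes, limma called 0 by genotype without the block and 1, Trbc2, with it. Trbc2 entered the fits through its WT pools alone and was chosen for its levels here. The median genotype difference was -0.10, against 0.00 over all genes, with 7 differences above 0 and 15 below. Without TCRb-/- experiment 2 that median was 0.089, so its sign rests on that library. Leaving out TCRb-/- experiment 1 left a single TCRb-/- pool, that with the lowest striatum sum. The genotype differences of Trbc2, Cd4 and Bcl11b, picked by that fit, were then -2.59, -2.75 and -1.39. Between experiments, limma called 2 of the 22 pathway genes higher and 6 lower in experiment 2, against 1245 higher and 2048 lower of 13900 genes (23.7% in all).

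All 5 fitted transcription factors of the list were called between experiments by limma, 2 higher and 3 lower in experiment 2, where 23.7% of all fitted genes were called. Those named here were picked after their values were seen. Bcl11b, a zinc finger factor of T cells and of striatal and cortical neurons, had 185, 48.2, 176 and 93.4 CPM in TCRb-/- experiments 1 and 2 and WT experiments 1 and 2. Tcf7, a target-binding factor of the Wnt pathway, had 12.5, 2.90, 11.3 and 7.20 CPM. Both had the order of Drd1, and with Cd4 they were the 3 of 22 fitted pathway genes that did, a share near the 12.9% of all fitted genes. Both were called lower in experiment 2, by -1.41 and -1.19 (adjusted limma p 0.00936 and 0.0292). Bcl11b lay nearer to Drd1 than Cd4 did, at a distance of 0.30.

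Lef1, the factor related to Tcf7, ran the other way, at 2.20, 9.11, 1.95 and 4.74 CPM in the same order of libraries. It was called higher in experiment 2 by 1.31 (adjusted limma p 0.0135). Eomes, a T-box factor of cytotoxic lymphocytes, had 10.8, 15.8, 7.40 and 13.7 CPM and was also called higher, by 0.66 (0.0343). Lef1 and Eomes had the library order of the choroid plexus genes, which 10.2% of all fitted genes shared. The summed levels of thalamus genes and of septum genes ran in that order too. Rasgrp1, an exchange factor that activates Ras, was the most abundant of the kinases and adaptors apart from Fyn per exon length, and it had 299, 131, 331 and 168 CPM. It was called lower in experiment 2 by -1.08 (0.00384), with levels lower in both experiment 2 pools.

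Markers of other immune cells were few. None of 7 genes of NK and cytotoxic cells, 2 of 6 B cell genes and 1 of 8 blood genes were listed, and the others of these lists were not analysed here. Of the B cell genes, Igkc encodes an immunoglobulin light chain. It had 0.325, 3.15, 0.649 and 1.79 CPM in TCRb-/- experiments 1 and 2 and WT experiments 1 and 2. Limma called Igkc higher in experiment 2 by 1.2 (adjusted p 0.015). Ighm, the other listed B cell gene, had 23.3, 16, 21 and 18.7 CPM in the same order of libraries. Its difference between experiments went the other way, at -0.34 (adjusted limma p 0.0782). The summed level of 10 microglia genes was 207 and 212 CPM in TCRb-/- experiments 1 and 2 and 204 and 199 CPM in WT experiments 1 and 2. It was thus highest in TCRb-/- experiment 2, where Cd4 was lowest, and it spanned a far narrower range than Cd4 did. Of these 10 genes, limma called 1 between experiments, Cx3cr1, lower in experiment 2 by -0.42 (adjusted p 0.0331).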

How the data were processed

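RNA was taken from septal tissue homogenate cleared of nuclei and debris, and SMARTer ultra-low-input libraries were sequenced on an Illumina HiSeq2500, per the labels' protocols. The submitters' processing notes name HISAT2 2.1.0, SAMtools 1.3, HTSeq 0.9.1, R 4.0.5, limma 3.46.0 and mm10; the annotation, strand setting and rule for keeping rows are not known from the sources used here. The authors deposited log2 values, 1 library per file with 15426 rows. The values were log2 of CPM with 0.5 added to the reads and 1 to the total, and 100% came out as whole reads within 0.01 reads. No row had fewer than 10 reads in its highest library. Left out were 17 ERCC spike-in rows and 12 rows that shared a symbol.

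CPM of the library total was transformed to log2(CPM + 1). Genes averaging 1 CPM or more were fitted with limma 3.58.1 in R 4.3.3 (trended moderation, two-sided, Benjamini-Hochberg over all fitted genes, threshold 0.05), with genotype or experiment as the single term. A count model had been planned in case of read counts; because the deposited unit was log2, limma was kept. Per the labels, replicate numbers match experiments and so pair the libraries: deviations from the genotype mean correlated at 0.719 across 13900 genes. Intervals were exact Clopper-Pearson at 95%, and exact conditional binomial for ratios; without molecular identifiers they cover counting error only. P-values measure the spread between pools. Positions and exon lengths are from GENCODE M21 on GRCm38. Other steps used Python 3.11.15 (scipy 1.17.1, numpy 2.4.6, pandas 2.3.3) and matplotlib 3.10.9.

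The 9 genes and all lists were chosen with earlier results of these data known. Named were the 9 genes, Drd1, pathway genes past the genotype threshold, the 5 genes nearest in profile to Trbc2 and to Cd4, defining markers of other cell types, and overlapping genes; other named genes were chosen after their values were seen. Alternatives were the experiment as a block, pseudocounts of 0.1 and 5, no filter or one at 10 CPM, quantile and median-of-ratios scaling, and leaving out each library. The block combined with no filter was added after seeing the data.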

Additional observations from a re-analysis of the deposited data

Results flagged for a closer look

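The difference between TCRb-/- and WT had opposite signs in the 2 experiments for 3 of the 9 T cell genes. The change of that difference, experiment 2 minus experiment 1, was -2.63 for Cd4, 0.33 for Thy1 and -0.22 for Skap1 on the scale of log2(CPM + 1). With 1 pool per genotype in each experiment, this change between experiments was not tested.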

How the results depend on the processing

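The replicate block took the number of genes called by genotype from 0 to 2, and block and no filter gave 1. Leaving out single libraries gave 0 to 47 (47 without TCRb-/- experiment 1, 1 without TCRb-/- experiment 2). Of the T cell genes, 1 was called with the replicate block and 1 with block and no filter (Trbc2 in both), and 0 to 2 without single libraries. Of the pathway genes, 1 was called with the replicate block, 1 with block and no filter, and 0 to 3 without single libraries. The block changed no other genotype call of the 9 genes. Between experiments, 1417 to 3422 genes were called without single libraries, against 3293, and 0 to 1 of the T cell genes; block and no filter gave 2, Cd4 and Cd247. The difference of Thy1 between experiments was 0.054 under quantile normalization and 0.013 under median-of-ratios scaling, against -0.02. Signs also turned when single libraries were left out. Genotype differences then ran from -2.75 to 0.73 for Cd4, from -0.042 to 0.79 for Cd247, from -0.11 to 0.076 for Thy1 and from -0.23 to 0.27 for Skap1. Differences between experiments ran from -1.76 to 1.14 for Trbc2, from -0.11 to 0.072 for Thy1 and from -0.0021 to 0.28 for Lck. With a library left out, 1 pool stands for its genotype and is assumed to vary like the others. The causes were not tested. A filter at 10 CPM leaves Cd4 and Thy1 only of the 9 genes. With all 4 libraries, 166 of 178 values were classed as unchanged, a class that allowed counts of genes to shift. It held the count of genes called between experiments with the filter at 10 CPM, 3019 against 3293. It also held the T cell genes with genotype as largest share and no overlap, which went from 3 to 2 under quantile normalization. Depth limits Cd247, Cd6, Trac and Skap1, with 5 to 36 reads per library.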
